A study of Drosophila melanogaster with 3 samples.

Results

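Elba2 summits that lay upstream of the start of a single protein-coding gene made up 684 of the 3276 optimal Elba2 peaks on build dm6, or 20.9% of them. Members were chosen by position and by signal. A peak had to be in the authors' optimal set, its summit had to lie within 500 bp of a transcription start site (TSS) of exactly 1 protein-coding gene, and the summit had to be upstream of, or exactly at, the nearest TSS of that gene. The chosen peaks belonged to 653 genes. The other optimal peaks were 421 with the summit downstream of the TSS of a single gene, 822 within reach of the TSSs of 2 or more genes, and 1349 with no coding TSS in reach.

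The peaks come from chromatin immunoprecipitation and sequencing (ChIP-seq) of whole Drosophila melanogaster embryos of both sexes aged 0 to 4 h. All 3 samples are biological replicates of 1 group. The embryos came from a stable transgenic line, strain CG9883-GFP, in which green fluorescent protein is joined to the C terminus of Elba2, and an antibody against the tag was used for the pull-down. Neither an untagged nor an input sample was used here, the control library behind the authors' peak calls was not analysed here, and what drives the transgene is not given in the sources used here. Whole embryos mix all cell types, so more bound cells and more binding per cell cannot be told apart.

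Elba2 is a BEN-domain protein and a subunit of ELBA, a complex named for its activity at an insulator of the bithorax Hox cluster in the early embryo. In ELBA, Elba1 and Elba2 contact DNA and Elba3 joins them, and the complex binds the asymmetric word CCAATAAG, called the ELBA site below. Insensitive (insv), a related BEN-domain protein and a corepressor in neural development, binds the palindrome CCAATTGG. Promoters of active fly genes carry other words near the TSS, among them the site of motif 1 binding protein (M1BP, GGTCACAC) and the DNA replication-related element (DRE, TATCGATA), while runs of GAGAGAG bind GAGA factor.

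Strong members that hold the ELBA site outside annotated exons are shown first, because this word is the complex's own. Some stronger holders, such as tun and Galphao, are not shown. Each line gives 58 bases of dm6 in the direction of the gene, with the ELBA site in capitals, which reads CTTATTGG where it lies on the strand opposite to the gene.
Fer3: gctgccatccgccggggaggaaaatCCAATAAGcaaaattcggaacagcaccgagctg
wg: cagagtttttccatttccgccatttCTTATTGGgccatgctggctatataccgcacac
Polr3A: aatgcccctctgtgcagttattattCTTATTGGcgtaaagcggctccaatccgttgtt
Sh3beta: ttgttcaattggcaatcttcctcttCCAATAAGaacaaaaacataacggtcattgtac
CG40228: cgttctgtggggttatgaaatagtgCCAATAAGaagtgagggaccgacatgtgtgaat
The windows are chr3R:11694333-11694390 (minus strand) for Fer3, a bHLH transcription factor gene, chr2L:7306827-7306884 (plus) for wg, the gene of the Wnt ligand Wingless, and chrX:15762843-15762900 (plus) for Polr3A, the gene of the largest RNA polymerase III subunit. Those of Sh3beta and CG40228 are chr3L:7368361-7368418 and chr3L:27083992-27084049, both on the minus strand. The word's centre lay 50.5 bp upstream of the TSS at Fer3, 303.5 bp at wg, 84.5 bp at Polr3A, 199.5 bp at Sh3beta and 114.5 bp at CG40228.

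Strong members with the palindrome outside exons are shown in the same way, with CCAATTGG in capitals, and again some stronger holders, such as coro, are not shown.
crol: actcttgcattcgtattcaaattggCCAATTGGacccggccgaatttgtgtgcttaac
opa: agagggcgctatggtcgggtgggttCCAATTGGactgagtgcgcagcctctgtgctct
muc: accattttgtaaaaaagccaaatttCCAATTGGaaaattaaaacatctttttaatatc
dpy: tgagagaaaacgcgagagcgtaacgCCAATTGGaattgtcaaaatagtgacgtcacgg
Corp: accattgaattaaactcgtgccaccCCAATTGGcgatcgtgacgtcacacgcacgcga
These are chr2L:11809046-11809103 (minus strand) at crol, a zinc-finger transcription factor gene of the ecdysone response, chr3R:4852468-4852525 (plus) at opa, the pair-rule gene odd-paired, and chr2L:7426686-7426743 (plus) at muc, which encodes a pyruvate dehydrogenase subunit. The last pair are chr2L:4614578-4614635 (minus) at dpy, the gene of a large extracellular matrix protein, and chrX:8271702-8271759 (minus) at Corp. The word's centre lay 102.5, 316.5, 151.5, 306.5 and 321.5 bp upstream of the TSS at these genes in the order shown.

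Members with a word of another factor are shown for the M1BP site and for GAGAGAG. Below, the M1BP site sets the members apart from weak regions only, and GAGAGAG from shared promoters only. The word is in capitals, on whichever strand it lies.
Dpm3, M1BP site: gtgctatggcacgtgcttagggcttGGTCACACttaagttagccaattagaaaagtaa
Polr3A, M1BP site: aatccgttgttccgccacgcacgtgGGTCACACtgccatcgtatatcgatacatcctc
beat-Ia, GAGA repeat: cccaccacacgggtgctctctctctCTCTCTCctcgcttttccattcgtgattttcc
abd-A, GAGA repeat: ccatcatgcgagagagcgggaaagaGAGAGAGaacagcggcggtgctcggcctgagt
They lie at chr3R:13403222-13403279 (minus), chrX:15762890-15762947 (plus), chr2L:16049834-16049890 (plus) and chr3R:16830209-16830265 (minus). Dpm3 encodes a subunit of dolichol-phosphate mannose synthase, beat-Ia acts in axon guidance, and abd-A is a Hox gene. At Polr3A the ELBA site and the M1BP site lay on the same promoter, with centres 84.5 and 37.5 bp upstream of the TSS, together with CCAATAGG and a DRE. By the annotation, the summits at crol and Sh3beta lay within the span of their own gene, that at Corp lay in an intron of another coding gene, and those at the other genes shown lay outside coding genes.

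The lists held 29295, 30000 and 30000 regions in replicates 1, 2 and 3 and 28496 in the pooled sample. Read counts were not used here, so depth is unknown. Each replicate's list was also read at as many top regions as there are optimal peaks, and replicate 3 stood apart there. The top regions of the replicates held 721, 693 and 582 upstream single-gene summits and 391, 399 and 584 downstream ones, so the upstream share was 64.8%, 63.5% and 49.9% (mean 59.4% ± 8.25, SD, n = 3). Regions at the top of replicates 1 and 2 alone gave an upstream share of 66.1% over 516 upstream summits.

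Of the single-gene promoter peaks, 61.9% had the summit upstream (684 of 1105, exact 95% interval 59.0 to 64.8%). Of the weak single-gene regions, which are pooled regions over 1000 bp from every optimal summit, 52.7% did (2316 of 4392, 51.2 to 54.2%). Side and distance are part of the rule, so these shares are a description with no test. The median member summit lay 121.5 bp upstream (quartiles 53.75 and 241 bp), against 169 bp in the weak upstream regions. Of the members, 165 lay within 50 bp of the TSS and 40 lay over 400 bp away. The median distance was 120, 136 and 117.5 bp in the top regions of the 3 replicates.

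**Figure D1:**
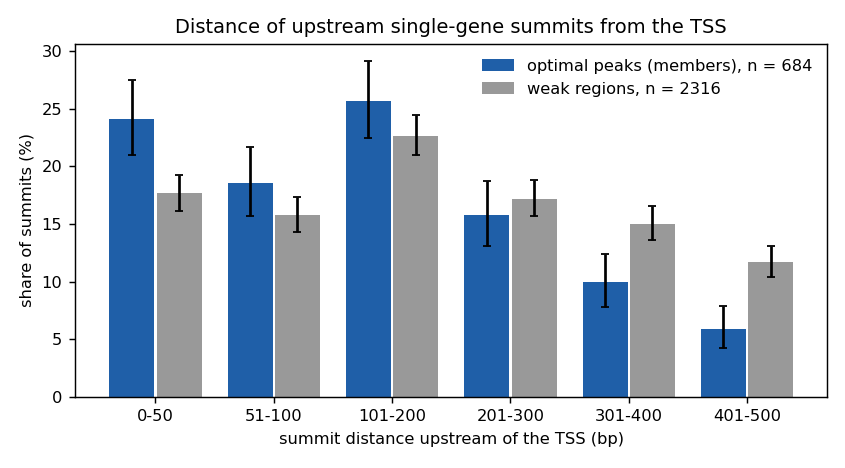
Share of summits (%) by distance upstream of the TSS (bp), for the 684 members and the 2316 weak upstream regions, with exact 95% intervals as error bars. Members are the larger share within 50 bp (24.1% against 17.7%) and the smaller share at 401 to 500 bp (5.85% against 11.7%).

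At the edges of the rule, CG10479 (499 bp) and nw (494 bp) were the farthest members, and Sin3A (501 bp) and Boot (503 bp) lay just outside. The summit of CG10435 fell exactly on the TSS and that of Sema1a 1 bp upstream, while those of CG12236 and CG8907 fell 1 bp downstream and are not members. The weakest members were larp (signal value 109.191) and Lpin (109.098), and the strongest upstream regions left out of the optimal set were at CycE (108.977) and lobo (108.476). Peaks on either side of a limit were thus close in the quantity that the limit uses.

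The 20 strongest members had signal values from 489.968 to 1354.99, a scale of the authors' own that is not stated. Dpm3 led the optimal set and ranked 1 in every replicate. The gene px, a wing vein patterning gene, ranked 2, 2 and 6 in replicates 1, 2 and 3. The ubiquitin-conjugating enzyme gene ben ranked 13, 7 and 14, crol ranked 20, 9 and 13, and ph-p, a Polycomb repressive complex gene, ranked 15, 3 and 76. All 20 stayed among the top 201 regions of every replicate. Signal in the pooled replicates is part of the choice, so high ranks in these same replicates were largely set in advance.

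Other known genes among the 20 were bol (a germline RNA-binding protein), mRpL41 (a mitochondrial ribosomal protein), coro (an actin-binding coronin), woc (a zinc-finger protein), Ugalt (a nucleotide sugar transporter), Nuak (a protein kinase), Fer3 and wg. At wg the peak ranked 83, 170 and 41 in the replicates, and at Fer3 it ranked 65, 192 and 62. The rest were CG14100, CG10413, CG13921, CG1888, CG34117, tun and D19A. Of the 20, 7 held a BEN word (the ELBA site, the palindrome or the mixed word CCAATAGG), 1 held an M1BP site or DRE, and 9 held none of the 12 words searched.

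**Figure D2:**
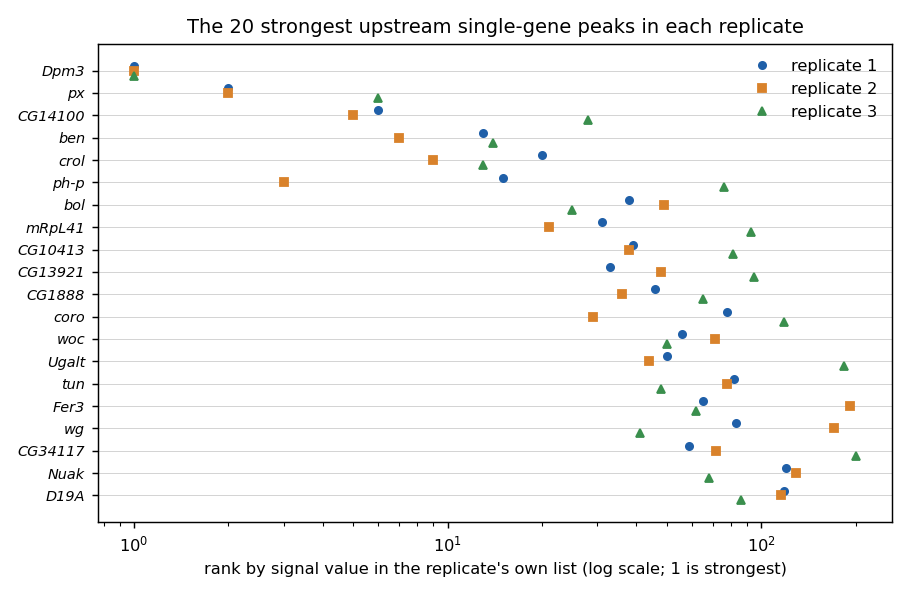
Rank of the 20 strongest members by signal value in each replicate's own list (log scale, 1 is strongest), with genes ordered by rank in the optimal set and the replicates offset vertically. Dpm3 ranks 1 in every replicate, and no point lies beyond rank 201.

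Over all members, a region with its summit within 200 bp was present in the full lists of all 3 replicates for 664, and was missing from replicate 1 for 2, from replicate 2 for 4 and from replicate 3 for 14. The optimal set was made from these same replicates, so this presence was largely set by the rule and is a description only. Among each replicate's top regions, 88.3%, 81.9% and 72.1% of members were found in replicates 1, 2 and 3, and 380 members (55.6%, exact 95% interval 51.7 to 59.3%) were found at the top of all 3. The matched summits lay a median of 6, 10 and 19 bp from the pooled summit. Among members matched in replicates 1, 2 and 3, the matched region kept the class, upstream of the same kind of single-gene promoter, for 95.9%, 94.6% and 89.6%. The median signal value was 158.831 in members, 170.290 in downstream peaks and 169.581 in shared promoter peaks.

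The summit lay outside every coding gene for 454 members (66.4%). For 189 (27.6%) it lay inside the span of its own gene, upstream of an internal start, as at crol, px, ph-p and bol. Another coding gene's intron held 24 and its exon 17, and 40 members also had a TSS of a non-coding gene in reach. The nearest coding TSS on the far side was a median of 3322 bp away (quartiles 1496.5 and 7680 bp). The neighbour pointed away from the member gene, as a divergent pair, for 301 members (44.0%), and 144 of these pairs lay within 2000 bp. The rule leaves out summits in reach of a second gene's TSS, which removes close neighbours. Neighbours were not measured for other classes or for all genes, so these values are not a trait of the members.

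At 31 genes there were 2 member peaks. At 20 of these both summits belonged to the same TSS, and the median spacing over the 31 genes was 204 bp, with 199 bp as the least. At wg the second summit lay 56 bp upstream of the TSS and 199 bp from the first, and ranked 1657 in the optimal set against 78. At ben it ranked 3045 against 7 and lay 216 bp away. Of the 31 pairs, 21 lay within 500 bp of each other, most of them near the least spacing, and the part of peak calling in this was not tested.

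Sequence was not itself used to choose the members, but the rule sets on which side of the TSS, and thus in which sequence, a summit lies. With that limit, 12 words, read on either strand up to 100 bp from each summit, were compared between the members and 3 other classes. Each of the 36 comparisons used Fisher's exact test, two-sided, adjusted over all 36 by the Benjamini-Hochberg method, and was called at an adjusted p under 0.05. The tests treat peaks as independent, which neighbouring peaks and repeated promoters are not. The words were chosen with earlier results of these data known, so the p-values are not those of words fixed in advance. Against the weak upstream regions, 5 of 12 words (41.7%) were called, all higher in the members.

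Against the weak upstream regions, the ELBA site was found at 36 of 684 members (5.26%, exact 95% interval 3.71 to 7.21%) and 30 of 2316 weak regions (1.30%, 0.876 to 1.84%), an odds ratio of 4.23 (exact adjusted p = 1.86e-07). The palindrome was found at 52 members (7.60%, 5.73 to 9.85%) and 24 weak regions (1.04%), an odds ratio of 7.86 (exact adjusted p = 4.03e-16). A related mixed word, CCAATAGG, was found at 16 members (2.34%) and 10 weak regions (0.432%), an odds ratio of 5.52 (exact adjusted p = 0.00012). The ELBA letters in reverse order, GAATAACC, served as a control of equal composition. They were found at 1 member, the gene elav, and 8 weak regions, and were not called (exact adjusted p = 0.757).

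In the top regions of the 3 replicates the ELBA site was at 5.69%, 4.76% and 6.19% of upstream single-gene summits (5.54% ± 0.722, SD, n = 3). The palindrome was at 6.66%, 6.93% and 7.39% (6.99% ± 0.370, SD, n = 3). The replicates' lists share many sites, and the words are read from the same reference genome. Word shares by replicate, here and below, thus differ only through which regions rank high, and are not independent of each other. Across all 13967 coding promoters, in a window of the same length centred 120 bp upstream of the canonical TSS, 0.694% held the ELBA site, 0.609% the palindrome and 0.265% the mixed word. Any BEN word was at 101 members (14.8%), 63 weak regions (2.72%), 102 downstream peaks (24.2%) and 75 shared promoter peaks (9.12%). The ELBA site and the palindrome occurred together at 2 members, cona and Fer2.

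The M1BP site was found at 70 members (10.2%, 8.06 to 12.8%) and 111 weak regions (4.79%, 3.96 to 5.74%), an odds ratio of 2.26 (exact adjusted p = 8.05e-06). In the genome-wide window centred 120 bp upstream of the canonical TSS, 2.81% of promoters held it. That window stops short of the TSS, whereas 32 of 73 copies at members lay downstream of the TSS. The member and genome-wide shares are therefore not measured over like windows. Member summits lie nearer to the TSS than weak ones. Among summits over 100 bp away, the odds ratio against weak regions was 2.34 with an exact adjusted p of 0.067. The DRE was at 53 members (7.75%) and 144 weak regions (6.22%), and was not called (odds ratio 1.27, exact adjusted p = 0.222). Its genome-wide share was 5.81%, with the same limit of unlike windows. The E-box CAGCTG, a word of bHLH factors, was at 95 members (13.9%) and 244 weak regions (10.5%) with an exact adjusted p of 0.0452, and this call was lost or turned under 12 of 14 alternatives. Neither a BEN word nor an M1BP site nor a DRE was found at 480 members (70.2%, 66.6 to 73.6%). The same held for 70.0% of shared promoter peaks, 64.4% of downstream peaks and 87.0% of weak upstream regions. The cause of the signal at these 480 members was not tested.

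**Figure D3:**
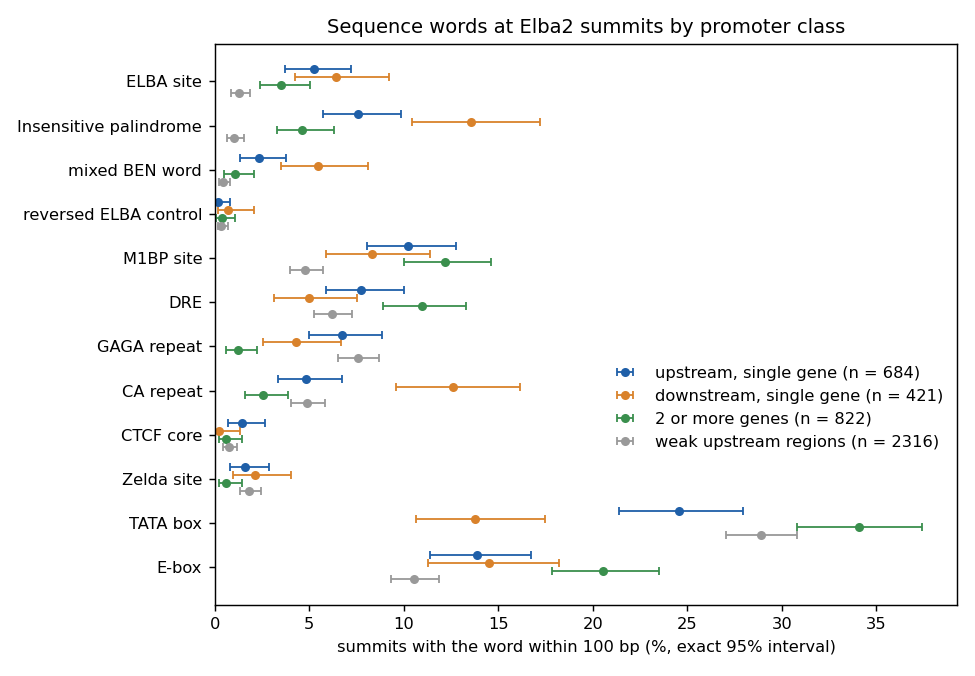
Share of summits (%) with each word within 100 bp, by class, with exact 95% intervals. Points are the 684 upstream members, 421 downstream peaks, 822 peaks at promoters of 2 or more genes and 2316 weak upstream regions. The palindrome is at 7.60% of members, between the downstream peaks (13.5%) and the shared promoters (4.62%), and at 1.04% of weak regions.

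Against the downstream single-gene peaks, 4 of 12 words (33.3%) were called, 1 higher and 3 lower in the members. The palindrome was lower, at 7.60% of members against 13.5% of the 421 downstream peaks (57, exact 95% interval 10.4 to 17.2%), an odds ratio of 0.53 (exact adjusted p = 0.00627). It was lower upstream in each replicate, at 6.66% against 12.8%, 6.93% against 13.5% and 7.39% against 11.1%. The mixed word was lower too (2.34% against 5.46%, odds ratio 0.41, exact adjusted p = 0.0353), a call lost under 5 of 12 alternatives. The ELBA site did not pass (5.26% against 6.41%, odds ratio 0.81, exact adjusted p = 0.529), and its direction turned under 3 alternatives. The DRE did not pass (7.75% against 4.99%, odds ratio 1.60, exact adjusted p = 0.149) but was called, higher in the members, under 4 of 12 alternatives, with an odds ratio of 5.95 for words within 50 bp (exact adjusted p = 0.00328) and 2.54 without replicate 1 (exact adjusted p = 0.0223).

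The repeat CACACACA was at 33 members (4.82%) and 53 downstream peaks (12.6%), an odds ratio of 0.35 (exact adjusted p = 3.45e-05). The TATA box word TATAAA was at 168 members (24.6%, 21.4 to 28.0%) and 58 downstream peaks (13.8%, 10.6 to 17.4%), an odds ratio of 2.04 (exact adjusted p = 9.34e-05). It was higher upstream in each replicate, at 28.4% against 15.3%, 26.6% against 13.5% and 20.3% against 10.6%. The rule separates member and downstream windows by the side of the TSS on which the summit lies. The windows also differed in base composition, with a median GC content of 38.8% in members and 44.3% in downstream peaks. The part of side and composition in these word differences was not tested. The median TATA word at members lay 181.5 bp upstream of the TSS. Of its 235 copies, 31 (13.2%) lay within 100 bp upstream of the TSS and 20 lay downstream of it. The gene strand held 112 of the 235 (47.7%). The word was counted wherever it lay, so a copy need not act as a TATA box. In the genome-wide window centred 120 bp upstream, which is placed unlike the summit windows, 37.4% of promoters held TATAAA. Over all words of 8 bases, the 3 whose share in members exceeded that in downstream peaks by the most were AAAAATAT, ATTTTTAA and ATTTTAAA, found at 9.94%, 10.1% and 8.77% of members and 2.61%, 3.09% and 2.14% of downstream peaks.

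Against peaks at promoters of 2 or more genes, 4 of 12 words (33.3%) were called, 2 higher and 2 lower in the members. GAGAGAG was at 46 members (6.73%, 4.97 to 8.87%) and 10 of 822 shared promoter peaks (1.22%, 0.585 to 2.23%), an odds ratio of 5.85 (exact adjusted p = 1.86e-07). In replicates 1, 2 and 3 it was at 5.96%, 5.34% and 10.7% of upstream summits and 0.562%, 1.11% and 1.71% of shared ones, so replicate 3 gave the highest share in both classes and the upstream share was the larger in all 3. In the weak upstream regions it was at 7.56%, and the members did not pass against them (odds ratio 0.88, exact adjusted p = 0.607). Members with it included beat-Ia, fus, CG6044, abd-A and Scr.

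TATAAA was at 24.6% of members and 34.1% of shared promoter peaks (odds ratio 0.63, exact adjusted p = 0.00026). The E-box was at 13.9% and 20.6% (odds ratio 0.62, exact adjusted p = 0.00332). Each of these calls was lost under 4 of 12 alternatives. The palindrome was at 7.60% and 4.62% (odds ratio 1.70, exact adjusted p = 0.0452), a call lost under all 12 alternatives. The M1BP site (10.2% and 12.2%, odds ratio 0.82, exact adjusted p = 0.337) and the DRE (7.75% and 10.9%, odds ratio 0.68, exact adjusted p = 0.0945) did not pass. Both were called lower in the members among summits over 100 bp from the TSS, the M1BP site at an odds ratio of 0.27 (exact adjusted p = 2.87e-06) and the DRE at 0.28 (exact adjusted p = 1.18e-05). The DRE was called, always lower, under 4 of 12 alternatives, and the M1BP site under 2, while its direction turned under 3 others.

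The words differed in where they lay on the member promoters. The M1BP site was at 19.2% of the 292 members with the summit within 100 bp of the TSS (exact 95% interval 14.8 to 24.2%), at 5.11% of the 176 at 101 to 200 bp, at 1.85% of the 108 at 201 to 300 bp and at 2.78% of the 108 beyond. The DRE also had its highest share nearest to the TSS, at 13.7%, 4.55%, 3.70% and 0.926%, and so did the E-box, at 21.6%, 11.4%, 4.63% and 6.48%. The ELBA site showed no such fall, at 4.11%, 4.55%, 7.41% and 7.41%, nor did the palindrome, at 7.19%, 4.55%, 7.41% and 13.9%, and the intervals of the ELBA site overlapped in all 4 bins. GAGAGAG was at 3.42%, 6.82%, 11.1% and 11.1%. Words were read only up to 100 bp from the summit, so members beyond 200 bp could not hold a word within 100 bp of that TSS. For a word that lies near the TSS, the fall with distance is thus partly set by the window.

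Copies of the M1BP site had their median centre 6.5 bp upstream of the TSS, and 32 of 73 copies lay downstream of it. Of the 59 DRE copies, 42 lay within 100 bp upstream. The 37 ELBA site copies were centred a median of 188.5 bp upstream (quartiles 84.5 and 308.5 bp) and the 52 palindromes 149.5 bp upstream. Relative to the summit, the palindrome was the closest of these, at a median of 18.5 bp, against 35.5 bp for the ELBA site, 39.5 bp for the M1BP site and 45.5 bp for the DRE. The ELBA site pointed along the gene in 18 of 37 copies (48.6%, exact 95% interval 31.9 to 65.6%), and the M1BP site in 50 of 73 (68.5%, 56.6 to 78.9%).

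**Figure D4:**
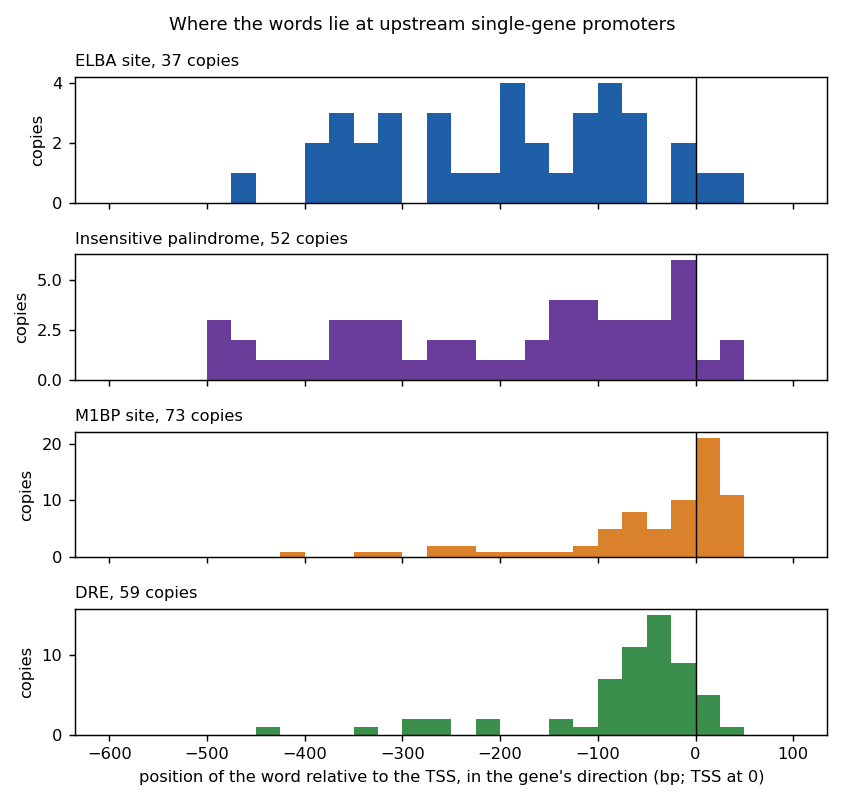
Number of copies of 4 words at member promoters by position relative to the TSS (bp in the gene's direction, TSS at 0, bins of 25 bp), counted within 100 bp of the summit. M1BP sites and DREs gather near the TSS, while ELBA sites and palindromes are spread over the upstream window.

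The base next to the palindrome was A on its right side in 51 of 104 readings (both strands read, 49.0%). Next to the ELBA site it was A in 19 of 37 (51.4%). Over all words of 8 bases, the one whose share in members exceeded that in weak upstream regions by the most was CAATTGGA, the palindrome shifted by 1 base onto this A (57 members, 8.33%, against 1.51% of weak regions). The palindrome ranked 2, the M1BP site 3 and the ELBA site 9 of 32822 words, as a description with no test. In the same ranking against downstream peaks, CAATTGGA came last of 31570 words, at 8.33% of members and 19.2% of downstream peaks.

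By signal, the ELBA site was at 24 of the 228 strongest members (10.5%), 8 of the 228 in the middle (3.51%) and 4 of the 228 weakest (1.75%). The palindrome was at 13.2%, 5.26% and 4.39%, and the mixed word at 4.39%, 2.19% and 0.439%. The M1BP site had no such order, at 10.1%, 14.5% and 6.14%. Signal is used by the rule, so these shares are described only. Strongest holders of the ELBA site were CG10413, tun, Fer3, wg, Polr3A and Galphao, the gene of a G protein alpha subunit. Those of the palindrome were crol, coro, Nuak, beat-Ia, CG33144 and mge, which encodes a mitochondrial import receptor subunit. The mixed word was strongest at r, the gene of a pyrimidine synthesis enzyme, sima, the fly HIF-alpha, and alph, a protein phosphatase gene.

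Among the rarer words, the CTCF core AGGTGGCG was at 10 members (1.46%), with wcy, Obp99b and mtSSB the strongest, and the Zelda site CAGGTAG, bound by an activator of the zygotic genome, was at 11 (1.61%), with papi, Alk and scw the strongest. Neither was called in any of the 3 comparisons. The CTCF core was at 1 downstream peak (0.238%, exact adjusted p = 0.127).

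Member peaks stood at 653 of 13968 protein-coding genes (4.67%, exact 95% interval 4.33 to 5.04%), and 2495 genes (17.9%) had an optimal peak of any class at a TSS. The lists below are compared with this share as counts, with no test. The gene of a member peak had a median of 2 TSSs, as did that of a downstream peak, against 1 for all coding genes. The lists were not matched for the number of TSSs. A summit in reach of another gene's TSS is not a member, so the count of genes with a peak of any class is given too.

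Among segment polarity genes, which set cell fates within each segment, 6 of 22 had a member peak (27.3%, 10.7 to 50.2%) and 7 had any peak. They were wg, mid and H15 (T-box factors), hh (the Hedgehog ligand), dsh (a Wnt signal transducer) and nkd (a Wnt antagonist). The peak at mid, at signal value 270.118, ranked 467, 727 and 566 in the replicates, and that at hh ranked 862, 477 and 558, and both held the palindrome. At nkd the ranks were lower down, at 3796, 1864 and 3761.

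Of the 10 Hox and homeotic genes, 4 had a member peak and 5 had any peak. The peak at abd-A (signal value 365.727) lay 93 bp upstream and ranked 311, 379 and 100 in the replicates. At Scr it ranked 673, 1333 and 422, at Abd-B 2771, 4115 and 937, and at lab 3388, 2383 and 14494. The peaks of abd-A and Scr held GAGAGAG and that of Abd-B, 109 bp upstream, held the ELBA site. At exd the peak lay downstream of the TSS, and Antp, Dfd, Ubx, hth and pb had no optimal peak at a TSS.

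Pair-rule and odd-skipped family genes had 3 of 13, with no further gene at a peak of another class, namely bowl (ranks 76, 318 and 461), opa (235, 207 and 415) and sob (1865, 2900 and 17952). None of the 12 gap genes had any peak at a TSS, which with 12 genes allows a share of up to 26.5% (exact 95% interval). In the Notch pathway 4 of 17 genes had a member peak and 6 any peak, the 4 being the corepressor gro (ranks 212, 277 and 1015), numb (380, 493 and 585), fng (4467, 1817 and 1080) and the ubiquitin ligase neur (3131, 1943 and 6024). In the E(spl) complex, the Notch target cluster, 4 of 11 had a member peak and 5 any peak, the 4 being E(spl)m5-HLH, E(spl)m2-BFM, E(spl)m7-HLH and E(spl)m3-HLH. The bHLH repressor gene E(spl)m7-HLH ranked 926 and 1130 in replicates 1 and 2 and had no region in replicate 3. At E(spl)m5-HLH the ranks in replicates 1, 2 and 3 were 7958, 1706 and 2565. At E(spl)m2-BFM they were 1682, 2727 and 8117, and at E(spl)m3-HLH 2319, 1021 and 4121. Thus none of these 4 peaks was among the top 3276 regions of every replicate.

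Hippo and growth signalling genes had 7 of 24 (29.2%, 12.6 to 51.1%) and 12 with any peak, with Mer, Pdk1, sd and ex the strongest, all with signal values under 150. The TEAD factor gene sd held the mixed word. Polycomb and Trithorax group genes had 5 of 31 (16.1%, 5.45 to 33.7%) and 18 with any peak, and the 5 included ph-p, Su(z)2, jing and trx. The peak at ph-p held none of the 12 words, that at Su(z)2 held GAGAGAG, and that at trx, 19 bp upstream, held the M1BP site.

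Of the housekeeping lists, translation factors had 9 of 52 (17.3%, 8.23 to 30.3%) and 15 with any peak, with eIF2Bgamma, eIF6, eIF4E1 and eEF1gamma the strongest. The peak at eEF1gamma, an elongation factor subunit gene, held the ELBA site and a DRE. Cytosolic ribosomal protein genes had 10 of 93 (10.8%, 5.28 to 18.9%) and 36 with any peak, led by RpS10b (ranks 369, 527 and 640), RpS26, RpL23A and RpL30. Mitochondrial ribosomal protein genes had 3 of 73, with 25 at any peak, and RNA polymerase II and general factors had 3 of 44, with 19 at any peak. Proteasome subunits had 2 of 48 (Prosbeta7 and Rpn11), with 13 at any peak. Their member shares of 4.11%, 6.82% and 4.17% lie near the 4.67% of all coding genes.

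Among the remaining lists, dorsoventral and Toll genes had 4 of 34 (tin, scw, tsg and ush), cell cycle genes 4 of 35 (E2f1, Wee1, polo and Dp) and proneural and neuroblast genes 2 of 23 (numb and elav), and 9, 13 and 5 of these genes had any peak. The list of maternal patterning and mRNA repression had 2 of 24 (bcd and bel), zygotic genome activators 2 of 8 (opa and bcd) and glycolysis 2 of 14 (Ldh and Gapdh2), and 8, 3 and 3 had any peak. Rab5, Vps28 and Hsp27 were the single members of their lists of 31 Rab, 17 endosomal sorting and 22 chaperone genes, of which 8, 8 and 6 had any peak. None of 97 cuticle, 59 odorant receptor, 60 gustatory receptor and 19 chorion and vitelline genes had a peak of any class at a TSS.

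Of the 4 genes of ELBA and Insensitive, insv had a member peak, 126 bp upstream, at ranks 4213, 1884 and 631, with the Zelda site and no BEN word. Elba1, Elba2 and Elba3 had no optimal peak at a TSS. Of 15 insulator protein genes, BEAF-32 had a member peak 46 bp upstream, at ranks 4073, 2206 and 11246, near the weak end of the set. Cp190, Trl, Chro, Dref and M1BP had only downstream or shared promoter peaks, and CTCF, Clamp, Ibf1, Ibf2, ZIPIC, dwg, mod(mdg4), pita and su(Hw) had none at a TSS.

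**Figure D5:**
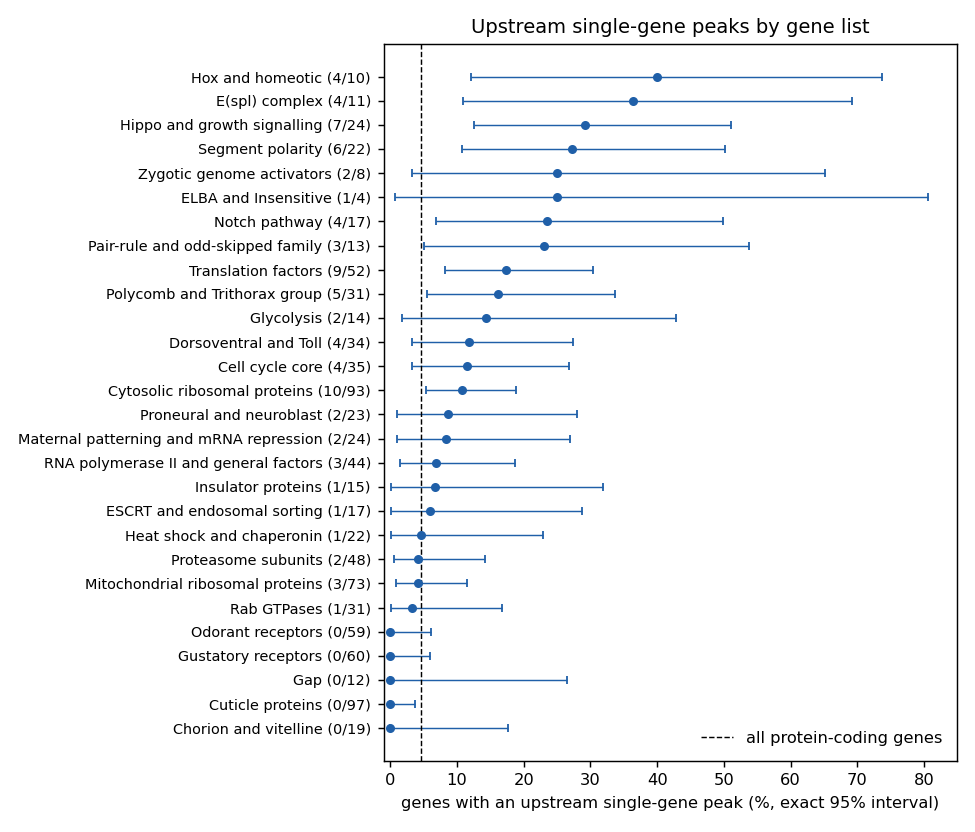
Share of each list's genes (%) with a member peak, with exact 95% intervals and counts beside the list's name. The dashed line is the 4.67% of all protein-coding genes. Hox and homeotic genes (4 of 10) and E(spl) genes (4 of 11) have the largest shares, with wide intervals, and 5 lists have none. None of the 4 E(spl) member peaks is among the top 3276 regions of every replicate.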

How the data were processed

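Elba2 ChIP-seq peaks were analysed in 3 biological replicates of 1 group, so no comparison between conditions was made. Per the labels, chromatin was sheared to 200 to 800 bp. Per the notes deposited with the files, the authors called a permissive list for each replicate and for the pooled replicates against a control library, and took an optimal set by irreproducible discovery rate (IDR). Which aligner, peak caller and IDR threshold were used is not given in the sources used here. The signal value deposited by the authors has no stated scale and was used only to rank peaks within a list. In the pooled list the 3276 optimal peaks were the 3276 with the highest signal. Read counts were not used, so depth is unknown, and the intervals reflect counting error alone. The deposited summit offset gave each summit. The dm3 copies of the lists were not used here.

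Gene models came from Ensembl release 115 and sequence from the RefSeq Release 6 genome, which is dm6. Coordinates are 1-based. Each word was looked for on either strand up to 100 bp from a summit. The weak regions were the 23209 pooled regions over 1000 bp from each optimal summit. Summits within 200 bp counted as one site across lists. Tests were two-sided Fisher's exact tests with Benjamini-Hochberg adjustment over 36 tests, and intervals were exact (Clopper-Pearson, 95%), computed with Python 3.11.15, numpy 2.4.6 and scipy 1.17.1 and drawn with matplotlib 3.10.9. The scripts were tested on simulated data.

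The members, words and gene lists were chosen with earlier results of these data known. Neither the word tests nor the gene lists are thus independent evidence. Of the list symbols, 9 matched through synonyms and 6 matched no coding gene (calypso, tube, Dl, nos, Tor and Vps37A). The pattern for cuticle genes was narrowed after it had caught Cpr, a reductase gene. Named genes were those of the 20 strongest members, the 3 strongest members with each word (6 for the ELBA site and the palindrome), up to 4 per list by signal, the ELBA, Hox and insulator genes, and the 2 nearest to each limit of the rule. Sequences came from the strongest such members whose window held no annotated exon, and members on chromosome arm 2R were left out of those shown. A few further genes (H15, dsh and nkd, the genes with 2 peaks, and the pair with both BEN words) were chosen after their values were seen.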

Additional observations from a re-analysis of the deposited data

How the results depend on the processing

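No paired analysis was possible because all samples are of 1 group. Against weak regions, the ELBA site, the palindrome and the mixed word stayed called under all 14 alternatives, as did TATAAA against downstream peaks and GAGAGAG against shared promoters under all 12. The palindrome against downstream peaks lost its call with words within 50 bp (exact adjusted p = 0.0534) and CACACACA with the TSS limit at 250 bp (exact adjusted p = 0.206). The cause was not tested. The upstream share ran from 58.3% to 66.1% with a replicate left out. The number of members was 343 in the 1638 strongest peaks, 380 among peaks at the top of all replicates, 392 over 100 bp from the TSS (chosen after seeing the data) and 420 to 516 with a replicate left out, with 331, 365, 380 and 399 to 489 genes. The median distance was 83 bp and 167 bp with the limit at 250 and 1000 bp, 142 bp in the strongest peaks, 219.5 bp over 100 bp from the TSS, and 120.5 to 135 bp with a replicate left out. The ELBA site share was 4.54% (250 bp limit), 7.58% (strongest), 7.63% (top of all replicates), 3.07% and 7.16% (words within 50 and 200 bp), 6.12% (over 100 bp) and 6.67% to 7.64% (a replicate left out). The palindrome share was 5.67%, 8.42% (1000 bp limit), 6.88% (canonical transcripts), 10.5%, 10%, 6.14% and 8.92% in the matching order, and 7.95% to 9.52% with a replicate left out. Matching at 100 bp left 48.2% of members at the top of all replicates. Words called against weak regions fell to 3 over 100 bp from the TSS. Those against shared promoters fell to 2 with canonical transcripts, 2 at the top of all replicates, 1 with words within 50 bp, and 2 to 5 with a replicate left out. The odds ratio of the ELBA site against downstream peaks turned to 1.10 (strongest) and 1.21 (top of all replicates) and ran from 0.971 to 1.06 with a replicate left out, and against shared promoters to 0.924 (1000 bp limit). That of the M1BP site turned to 0.975 against downstream peaks (words within 200 bp) and to 1.01, 1.00 and 1.16 against shared promoters (250 bp limit, canonical transcripts, words within 50 bp), whereas it was called lower there, at 0.670, with words within 200 bp (exact adjusted p = 0.0159) and at 0.267 over 100 bp from the TSS (exact adjusted p = 2.87e-06). The DRE gained a call against downstream peaks at 2.09 (1000 bp limit), 2.10 (canonical transcripts), 5.95 (words within 50 bp) and 2.54 (without replicate 1), and against shared promoters at 0.634 (1000 bp limit), 0.544 (words within 200 bp), 0.585 (without replicate 3) and 0.279 (over 100 bp). That of the E-box against weak regions turned to 0.990 over 100 bp from the TSS. Depth is unknown and could not be used to weigh weak peaks.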
